A study of Drosophila melanogaster with 8 samples.

Results

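S2 cells are a Drosophila line derived from embryos that resembles blood cells. Stable lines were selected with G418 after transfection with pUWG vectors that carried neomycin resistance and mutant Beaf, set against wild type; whether the wild-type lines received a transfected wild-type gene is not said. The 3 libraries labelled wild-type Beaf, of 8 in the series, are described here. They carry no mutant Beaf and were grown alike as far as the labels say. They were set apart by the level of BEAF-32 (FBgn0015602), the gene for Beaf itself: library 1 lay under 50 CPM (values scaled to a gene total of 1000000), and libraries 2 and 3 lay over 300 CPM. The promoter of any transfected gene, the number of resistant colonies behind a line and whether the libraries came from separate cultures are not given in the labels. The protocol text shared by all samples also describes depletion over 5 days with 400 µg of double-stranded RNA against beaf32 or ctcf, and no wild-type Beaf library is labelled as depleted. That text states that libraries were made from total RNA without poly-A selection. Library numbers follow the deposited tables, because the column names carry no replicate number.

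BEAF-32 is an insulator protein of Drosophila that binds near promoters, often between closely spaced genes that are transcribed away from each other. Insulator proteins limit contacts between neighbouring chromosomal domains, and BEAF-32 is known to share sites with the proteins Chro, Cp190 and Dref. S2 cells express genes of plasmatocytes, the phagocytic blood cells of the fly, which also secrete clotting factors and basement membrane.

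Library 1 held 1720616 recovered gene reads, library 2 held 1528041, and library 3 held a gene total of 1595612 as deposited. Reads outside annotated features made up 94.0%, 91.7% and 91.3% of all values in libraries 1, 2 and 3, and reads not aligned made up 0.790%, 3.32% and 3.55%. Values of IDs without a symbol took 33.7%, 31.3% and 30.2% of the gene totals. Each of the 3 tables was scaled separately by its authors, so the values compared here come from different tables and were brought together only by CPM. The control of the CTCF knockdown, an S2 library from another treatment and table with 10963743 recovered gene reads, is given beside some genes as a further level. Its makeup differed: the summed level of 30 small nuclear RNA genes was 2.46 CPM there, and 3413 CPM or more in each wild-type library, and that of 111 replication-dependent histone genes was 45.2 CPM against 1844 to 2002 CPM.

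BEAF-32 stood at 25.0 CPM in library 1 (43 reads, 95% Poisson interval 18.1 to 33.7 CPM), at 469 CPM in library 2 and at 676 CPM in library 3. Because this level chose the libraries, it is a description and supports nothing further. The CTCF control held 58.3 CPM, just outside the lower limit of the rule. Endogenous BEAF-32 and any transfected copy cannot be told apart in these counts.

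Counted by genes at least 2-fold apart, library 1 differed from the other wild-type libraries mainly in genes that were scarcer there. Of 5534 genes past a filter of 10 CPM, 90 were at least 2-fold lower in library 1 than in the nearer of libraries 2 and 3 on the log2(CPM + 1) scale (1.63%), and 2 were at least 2-fold higher (0.0361%). At 4-fold the counts were 39 lower (0.705%) and 1 higher (0.0181%). BEAF-32, whose level chose the libraries, is among the 90 and the 39, and enters the counts and sums drawn from them. Its call was fixed by that choice. Libraries 2 and 3 were at least 2-fold apart in 22 of the same genes (0.398%), and none of these reached 4-fold. With 1 library on one side, these are ratios between libraries, with no replicate check and no p-value. Against library 3 alone 126 genes were at least 2-fold lower and 14 higher, and against library 2 alone 112 were lower and 16 higher.

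The genes that were lower in library 1 were called against the nearer of libraries 2 and 3. How close those libraries lay in these genes is therefore no separate support for the calls. Across the 90 genes the median size of the log2 ratio between libraries 2 and 3 was 0.14 and the largest was 0.97. Over all 5534 genes the log2 ratio between libraries 2 and 3 ran from −0.51 (5th percentile) to 0.42 (95th percentile). The median log2 ratio of library 1 to the nearer library was −1.75 in the 90 genes. Together the 90 genes summed to 2152 CPM in library 1, 11109 CPM in library 2 and 12019 CPM in library 3. The 2 higher genes summed to 38893, 6309 and 3569 CPM in the same order. Among the called genes the larger shift in summed signal was therefore upward. Over all 5534 genes the rank correlation across genes, which are not independent of each other, was 0.979 between libraries 2 and 3, and 0.962 for library 1 with either of them.

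**Figure D1:**
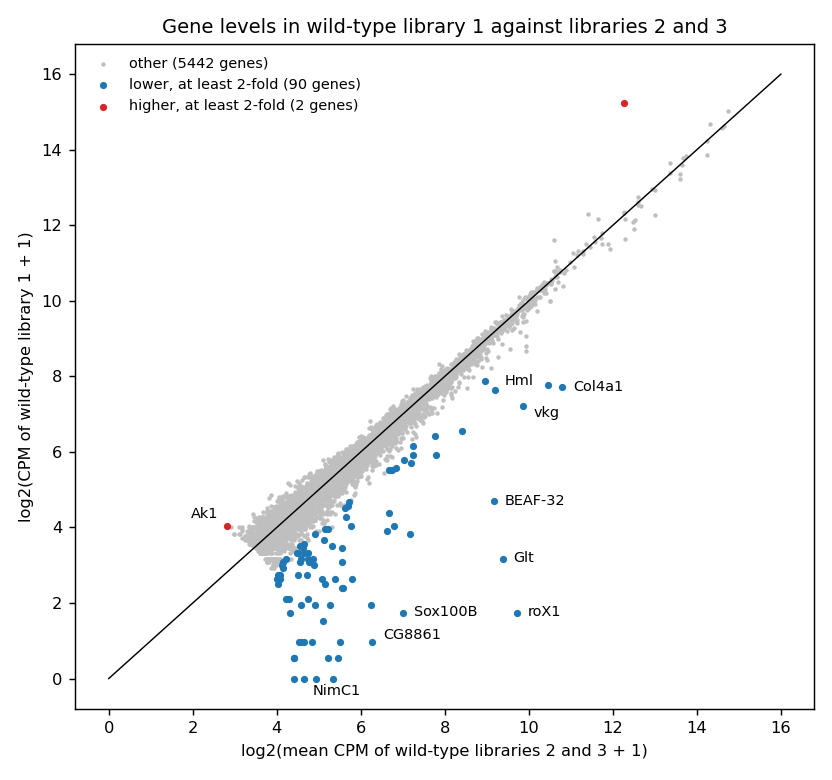
Each point is 1 of 5534 genes; the x axis is log2(mean CPM of wild-type libraries 2 and 3 + 1) and the y axis log2(CPM of library 1 + 1), with equality as a line. The 90 genes at least 2-fold lower in library 1 (blue) run from rarely read genes at the bottom left to Col4a1 and Hml at the upper right, and 2 genes (red) were at least 2-fold higher.

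The direction of small shifts depended on scaling. Library 1 lay below both other libraries in 42.8% of genes and above both in 29.1% by CPM over gene rows. With median-of-ratios scaling the split was 32.2% below and 40.7% above. With that scaling 82 genes were at least 2-fold lower, all among the 90, and 3 were higher. The median log2 ratio of all genes past the filter moved from −0.04 to 0.027, and the medians of lists and arms given here moved by about as much, so the sign of a median near 0 is not read.

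The 2 genes that were at least 2-fold higher belong to none of the gene lists. FBgn0085764, an ID without a symbol in the annotation used here, had 38878, 6304 and 3563 CPM in libraries 1, 2 and 3, so its values in libraries 2 and 3 also differed. Ak1, an adenylate kinase gene, had 15.6 CPM in library 1 (27 reads) against 5.82 and 6.27 CPM. The other 14 of the 15 highest genes with a symbol lay under 2-fold, led by 28SrRNA-Psi:CR41609 (log2 ratio 0.96) and PIG-F (0.94), which serves the synthesis of membrane anchors. The interval of the ratio of PIG-F to the nearer library ran from 1.00 to 4.71-fold.

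Besides BEAF-32, the other insulator proteins and their promoter partners were at like levels in the 3 libraries. Of 14 insulator genes past the filter BEAF-32 alone was at least 2-fold lower, which the choice of libraries fixed. Over all genes 1.63% were lower, so a list of this size would hold few and the absence of others says little. The median log2 ratio of the list to the mean of libraries 2 and 3 was −0.05. That of all genes past the filter was −0.04. Cp190, which encodes a protein that insulator factors recruit, had 186, 192 and 205 CPM. CTCF stood at 40.0, 29.6 and 42.0 CPM.

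For CTCF the value of library 1 lay between those of libraries 2 and 3. Chro, a chromodomain protein that joins BEAF-32 at promoters, stood at 145, 158 and 154 CPM. Dref, a transcription factor that recognises sites overlapping those of BEAF-32, stood at 97.5, 96.8 and 101 CPM. The zinc-finger insulator gene su(Hw) stood at 67.8, 63.5 and 66.4 CPM, and mod(mdg4), which encodes its partner, at 233, 261 and 258 CPM. The counting interval of the fold between library 1 and the nearer library included 1 for each of these 6 genes, for example 0.88 to 1.21 for Cp190.

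The gene lowest in library 1 by ratio was lncRNA:roX1. The roX RNAs are noncoding RNAs that guide the male-specific lethal complex to the X chromosome, where it raises transcription in male cells, and S2 cells are male. Library 1 held 4 reads of lncRNA:roX1, or 2.36 CPM (95% Poisson interval 0.63 to 5.95 CPM), where libraries 2 and 3 held 804 and 867 CPM, and the control 1028 CPM. The level in library 1 was 341-fold lower than in the nearer library, with a counting interval of 135 to 1271-fold.

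The second roX RNA did not follow. lncRNA:roX2 stood at 202 CPM in library 1, and at 168 and 170 CPM in libraries 2 and 3, so library 1 was the highest. In the control it stood at 16.04 CPM. The protein genes of the complex were also present: msl-2 stood at 56.5, 58.2 and 49.5 CPM, and mle, the helicase that remodels roX RNA, at 55.6, 46.6 and 53.9 CPM.

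Among the members of that complex msl-1, a scaffold protein, was the lowest in library 1, at 64.1 CPM against 93.1 and 109 CPM, which is under 2-fold. The acetyltransferase gene mof stood at 50.4, 68.3 and 50.1 CPM, and msl-3 at 26.9, 19.6 and 27.0 CPM. Of 13 dosage compensation and sex determination genes past the filter, lncRNA:roX1 alone was at least 2-fold lower. Over all genes 1.63% were lower, so the absence of others in so short a list says little. The female yolk protein genes Yp1 and Yp2 had 0 reads in library 1 and at most 1 in libraries 2 and 3.

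X-linked genes as a group did not stand apart from the autosomes in library 1. The median log2 ratio of library 1 to the mean of libraries 2 and 3 was −0.06 over 848 protein-coding genes of the X, and between −0.05 and −0.02 on 2L, 2R, 3L and 3R. The quartiles of the X ran from −0.22 to 0.11 and those of 2L from −0.21 to 0.13.

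Hemocyte genes were split. Of 30 list members in the files 17 passed the filter, and 5 of these were at least 2-fold lower in library 1 and 0 higher, where 1.63% of all genes were lower. The median log2 ratio of the 17 was −0.13, and −0.058 with median-of-ratios scaling. Glt, which encodes the secreted protein glutactin, had 8.01 CPM in library 1 (14 reads) against 640 and 691 CPM, 79.9-fold lower than the nearer library with an interval of 46.7 to 144-fold. Hml, which encodes the clotting protein hemolectin, had 216 CPM (371 reads) against 1335 and 1468 CPM, 6.19-fold lower with an interval of 5.54 to 6.93-fold.

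For Glt and Hml libraries 2 and 3 both lay above library 1, which follows from the call itself. The phagocytosis receptor gene NimC1 had 0 reads in library 1 and 38 reads in library 2, or 24.9 CPM, with 23.2 CPM in library 3. Taking 0 reads as up to 3 reads, or 1.74 CPM in library 1, NimC1 was at least 13.3-fold lower than the level measured in library 3. Sr-CI, a scavenger receptor gene, had 2 reads (0.94 CPM) against 39.7 and 49.5 CPM, a 42.1-fold lower level with an interval of 9.11 to 290-fold.

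Some hemocyte genes that missed the filter were also lowest in library 1. He, which encodes the hemocyte surface protein hemese, had 1 read in library 1 (0.47 CPM) and 10.6 and 16.9 CPM in the others. NimB5 had 0 reads in library 1 against 5.82 and 5.64 CPM, and NimB4, of the same Nimrod family, had 0.94 CPM against 13.23 and 5.64 CPM. The phagocytic receptor genes eater (80.1, 143 and 154 CPM) and drpr (17.4, 30.7 and 40.1 CPM) were lowest in library 1 too, at less than 2-fold.

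Other hemocyte genes were at like levels in all 3 libraries. The GATA factor gene srp, which specifies blood cells, stood at 330, 357 and 385 CPM, and its cofactor gene ush at 321, 337 and 367 CPM. Pvr, the receptor for PDGF- and VEGF-like ligands, stood at 1797, 1731 and 1678 CPM. The scavenger receptor gene crq stood at 184, 193 and 162 CPM. The ligand genes Pvf2 (490, 406 and 406 CPM) and Pvf3 (175, 152 and 149 CPM) and the ferritin gene Fer1HCH (791, 695 and 721 CPM) were highest in library 1, all by less than 2-fold.

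The cell type label was checked against 19 plasmatocyte markers. Of these, 15 passed the filter and 7 were at least 2-fold lower in library 1, where 1.63% of all genes were lower. The 7 are also on the hemocyte or matrix lists described here, so they add no separate evidence. The summed level of all 19 markers was 4666 CPM in library 1, 9325 CPM in library 2, 9779 CPM in library 3 and 38216 CPM in the control. The markers absent from library 1 were NimC1, NimB5 and PPO2, of which PPO2, a crystal cell enzyme, had at most 1 read in libraries 2 and 3. In such bulk libraries, fewer cells of a type and less RNA per cell cannot be told apart.

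**Figure D2:**
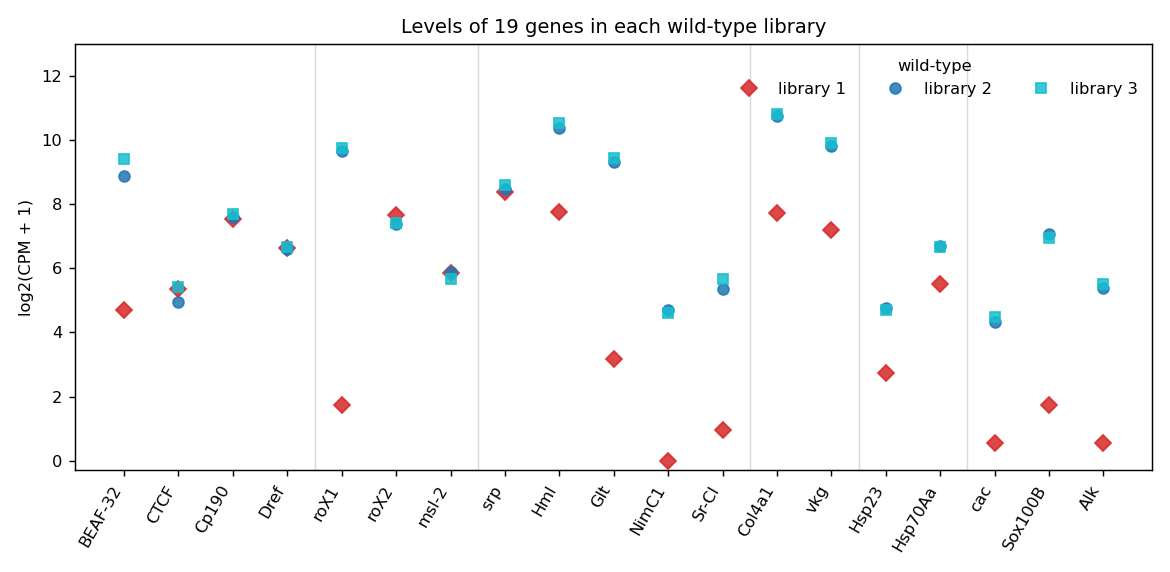
Levels of 19 genes as log2(CPM + 1) in each wild-type library, grouped by role from left to right as insulator, dosage compensation, hemocyte, matrix, heat-shock and other genes. Library 1 (red) is far below libraries 2 and 3 for roX1, Glt, NimC1 and Sr-CI but close to them for CTCF, Cp190, Dref, msl-2 and srp.

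Matrix genes were split in the same way. Of 15 members past the filter 5 were at least 2-fold lower in library 1 and 0 higher, where 1.63% of all genes were lower. Their median log2 ratio was −0.21. Glt and the peroxidase gene Pxn (199, 559 and 605 CPM) are also on the hemocyte list. The collagen IV genes are neighbours on 2L and encode the 2 chains of basement membrane collagen: Col4a1 had 209 CPM in library 1 against 1734 and 1816 CPM, and vkg had 147 CPM against 910 and 955 CPM. The levels were 8.31-fold and 6.21-fold lower than in the nearer library, with intervals of 7.44 to 9.30-fold and 5.43 to 7.13-fold.

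Laminin genes, whose products lie in the same membrane, did not differ to that extent. LanA, the alpha chain, stood at 5897, 6121 and 6193 CPM, and LanB1, the beta chain, at 3540, 3314 and 3525 CPM. The clot and matrix protein gene Tig stood at 2361, 2307 and 2252 CPM. SPARC, a collagen-binding protein gene, was lower in library 1 at 366 CPM against 579 and 642 CPM, which is under 2-fold, and the peptidase gene Ance was 7.11-fold lower, on 5 reads.

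None of 14 integrin and adhesion genes past the filter was 2-fold away. With 1.63% of all genes lower and 0.0361% higher, this says little for so short a list. The integrin beta gene mys stood at 1297, 1152 and 1189 CPM. Among the hemocyte and matrix genes that were low in library 1, the CTCF control held more than libraries 2 and 3: Hml was at 8051 CPM, Glt at 6681 CPM, Col4a1 at 9108 CPM, vkg at 4483 CPM, Sr-CI at 645 CPM and NimC1 at 138 CPM. BEAF-32 itself was lower in the control than in libraries 2 and 3. So were some others of the lower genes, picked here after their values were seen, such as the RNA helicase gene Dbp80 (233, 485 and 506 CPM, control 129 CPM), CG8861 (0.94, 69.8 and 83.4 CPM, control 18.6 CPM), CG42524 (4.24, 49.2 and 44.5 CPM, control 12.03 CPM), CG7720 (7.54, 45.0 and 47.0 CPM, control 20.8 CPM) and Muc14A (92.8, 327.5 and 347 CPM, control 58.4 CPM), a mucin-like gene. The control was at least 2-fold below the mean of libraries 2 and 3 in 8 of 79 protein-coding lower genes (10.1%). Among all 5106 protein-coding genes past the filter that share was 10.7%. At least 2-fold above that mean were 36 of the 79 (45.6%), against 4.48% of the 5106. BEAF-32 is among the 8, and these shares are by CPM over protein-coding genes. These comparisons share libraries 2 and 3, and CPM in the control is over another RNA makeup.

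Heat-shock genes were low in library 1 in part. Of 14 past the filter 3 were at least 2-fold lower and 0 higher, where 1.63% of all genes were lower, and the median log2 ratio was −0.43. Of these 3, 2 are near-identical Hsp70 copies. The small heat-shock gene Hsp23 had 5.65 CPM against 25.9 and 25.1 CPM, and Hsp70Aa, an inducible chaperone gene, had 44.8 CPM against 103 and 100.3 CPM. Hsp70Ab, its near-identical neighbour, had 46.6 CPM against 107 and 118 CPM. The other 4 Hsp70 copies past the filter were lowest in library 1 as well, at less than 2-fold. How reads were divided among the copies is not known.

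Constitutive chaperones differed less. Hsp83, the fly HSP90 gene, stood at 2436, 2487 and 2522 CPM, and the mitochondrial chaperonin gene Hsp60A at 320, 303 and 315 CPM. The heat-shock factor gene Hsf stood at 62.7, 69.3 and 62.0 CPM. None of 18 unfolded protein response genes past the filter was 2-fold away, which says little where 1.63% of all genes were lower and 0.0361% higher.

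Genes for channels and a peptide receptor were among the 15 lowest, namely cac, Sur and Pdfr. The calcium channel subunit gene cac had 1 read (0.47 CPM) against 19.05 and 21.3 CPM, and stj, which encodes the alpha2-delta subunit that assists such channels and is outside the 15 lowest, had 0.94 CPM against 22.8 and 32.6 CPM. Sur, which encodes a sulfonylurea receptor, had 0 reads against 37.6 and 42.0 CPM. Taking 0 reads as up to 3 reads, it was at least 21.5-fold lower than the level measured in library 2. The neuropeptide receptor gene Pdfr had 1 read, or 0.47 CPM, against 22.2 and 18.2 CPM, and the potassium channel gene eag, also outside them, had 2.36 CPM against 23.8 and 13.8 CPM.

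Most neuronal genes were scarce in all 3 libraries. Of 29 neuronal list members in the files 8 passed the filter, of which cac and eag were at least 2-fold lower and 0 higher. Over all genes 1.63% were lower. The pan-neuronal marker elav had 0 reads in each of the 3 libraries, and Dscam1, a receptor gene also used by hemocytes, stood at 683, 817 and 867 CPM. Of 21 muscle list members 5 passed, and 2 were lower: Mf, which encodes myofilin, with 2 reads (0.94 CPM) against 22.2 and 21.9 CPM, and bt, a titin-family gene, with 8.95 CPM against 27.5 and 24.4 CPM.

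Summed levels of the marker sets of other cell types were 80.1, 91.5 and 93.4 CPM for 11 neuronal markers, 1198, 1148 and 1180 CPM for 9 muscle markers, and 2213, 2072 and 2187 CPM for 14 epithelial markers in libraries 1, 2 and 3. The sums were lower in library 1 for 6 gonad markers, at 94.2, 231 and 246 CPM, and for 8 fat body markers, at 307, 535 and 597 CPM. Most of the gonad sum lay with AGO3 and most of the fat body sum with Apoltp. The muscle sum lay mostly with sls, at 1107, 986 and 1020 CPM. Epithelial genes held 2 lower members of 18 past the filter, where 1.63% of all genes were lower. These were the polarity genes crb (7.54, 23.8 and 29.5 CPM) and sdt (5.65, 22.2 and 21.3 CPM), whose products bind each other. Of 8 fat body markers Lsp1gamma had 0.47 CPM against 11.1 and 13.16 CPM, and Apoltp, a lipid transfer particle gene, had 300.1 CPM against 513 and 577 CPM. The part of other cell types in the low genes of library 1 was not tested.

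Regulators and receptors were also among the 15 lowest genes. Sox100B, a Sox-family transcription factor gene, had 2.36 CPM (4 reads) against 134 and 122 CPM, and Alk, a receptor tyrosine kinase gene, had 0.47 CPM (1 read) against 41.3 and 45.1 CPM. Ama, which encodes the secreted adhesion protein amalgam, had 0 reads in library 1 against 31.2 and 27.6 CPM. With 0 reads taken as up to 3 reads, it was at least 15.8-fold lower than the level measured in library 3. The chitinase gene Cht2 had 0 reads against 23.8 and 16.9 CPM, at least 9.71-fold lower than the level measured in library 3 on the same terms.

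The remaining 2 of the 15 lowest were Argk1, an arginine kinase gene (2.83, 76.2 and 74.6 CPM), and CG5080 (0.47, 38.1 and 33.8 CPM). Further down, the zinc-finger regulator gene tsh had 4.71 CPM against 32.8 and 35.7 CPM. Of the 90 lower genes 22 had at most 5 reads in library 1 and 15 had at least 50. Counting error in library 1 is therefore wide for the scarce genes, whereas Hml, Col4a1, vkg and Pxn rest on 252 to 371 reads there.

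Small RNA pathway genes were mostly level. Of 20 past the filter 2 were at least 2-fold lower and 0 higher, where 1.63% of all genes were lower. Their median log2 ratio was 0.06. AGO3, a Piwi-family gene, had 85.3 CPM against 210.05 and 221 CPM, and del, a gene of piRNA cluster transcription, had 0.94 CPM against 21.7 and 26.3 CPM. AGO1 and AGO2, the Argonautes of microRNA and small interfering RNA, stood at 377, 409 and 394 CPM and at 427, 406 and 421 CPM. RpS5b, a ribosomal protein paralog used in the germline, had 3.30 CPM against 23.8 and 27.6 CPM and was the only one of 79 cytosolic ribosomal protein genes past the filter that was at least 2-fold lower.

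With 1.63% of all genes lower, lists of growth and housekeeping genes of the sizes below would hold few at that share, so a count of 0 says little about them. None of 37 mitosis, 35 replication, 32 proteasome, 49 nuclear oxidative phosphorylation, 44 mitochondrial ribosomal protein, 13 glycolysis, 13 purine and 22 Polycomb genes past the filter was 2-fold away in either direction, and their median log2 ratios lay between −0.12 for Polycomb and 0.10 for mitosis, which became −0.049 and 0.17 with median-of-ratios scaling. The same was true of 17 cohesin and condensin, 20 pausing, 21 antioxidant and 96 histone genes. None of the 9 JAK/STAT, 10 ecdysone, 18 JNK and apoptosis and 19 immunity genes past the filter reached 2-fold.

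Some signalling genes that missed the filter were scarce in library 1. The apoptosis gene hid had 1.88 CPM against 13.23 and 15.04 CPM, and the cytokine receptor gene et had 2.36 CPM against 8.99 and 16.3 CPM. The cytokine gene upd3 had 0 reads in library 1 against 6.35 and 3.13 CPM. The JAK/STAT transcription factor gene Stat92E stood at 224, 262 and 280 CPM, and the JNK phosphatase gene puc at 142, 193 and 236 CPM.

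Metabolic and transport lists added single genes, beside a share of 1.63% lower over all genes. LpR2, a lipophorin receptor gene, had 6.60 CPM against 16.4 and 16.9 CPM, and the acyltransferase gene Agpat2 had 10.8 CPM against 23.8 and 24.4 CPM, the 2 lower genes of 26 lipid genes past the filter. Mvl, a metal ion transporter gene, had 24.5 CPM against 51.9 and 52.0 CPM, 1 of 6 iron genes. The actin regulator gene twf had 13.19 CPM against 30.7 and 27.6 CPM, 1 of 34 cytoskeleton genes.

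**Figure D3:**
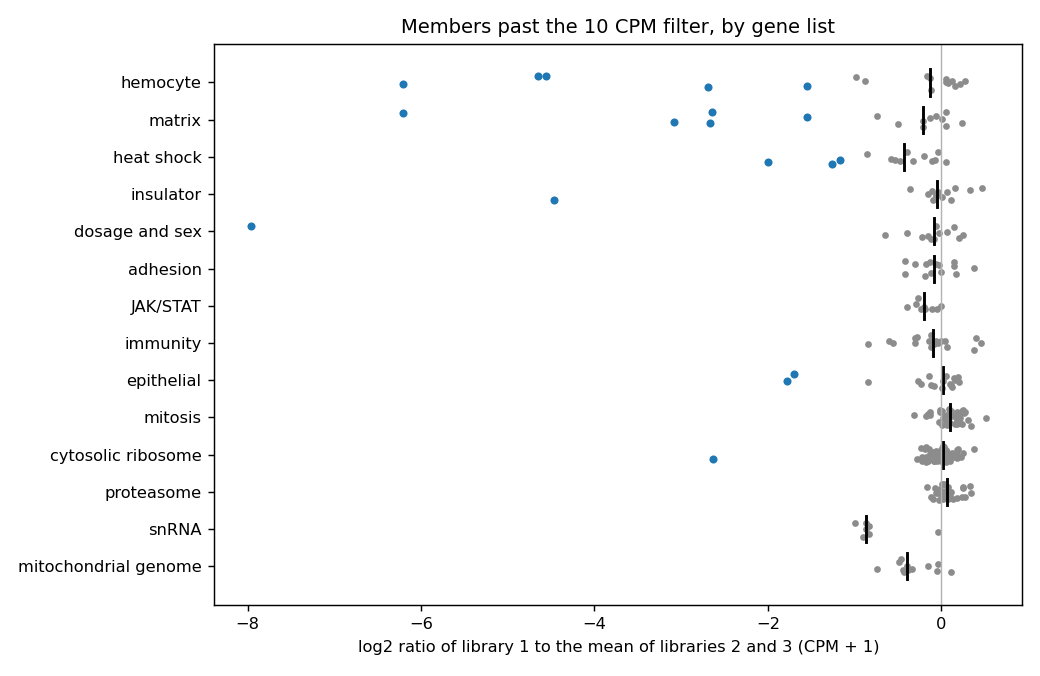
Each point is a gene past the 10 CPM filter; the x axis is the log2 ratio of library 1 to the mean of libraries 2 and 3 on CPM + 1, and rows are gene lists with the median as a bar. Genes at least 2-fold lower than the nearer library (blue) stand far to the left in the hemocyte and matrix rows, while the other members of these lists lie less than 1 from 0, and 6 of the 7 snRNA points lie to the left, with snRNA:7SKa near 0.

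Most small nuclear RNAs and mitochondrial transcripts were lowest in library 1. Of 7 small nuclear RNA genes past the filter all lay below libraries 2 and 3, as 42.8% of all genes past the filter did. Their median log2 ratio was −0.87 and none was at 2-fold. How reads were divided among the near-identical U1 and U2 copies is not known. snRNA:U2:34ABa stood at 419, 648 and 845 CPM. The polymerase regulator snRNA:7SKa stood at 2756, 2766 and 2889 CPM.

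Of 5 small nucleolar RNA genes past the filter 2 were at least 2-fold lower, where 1.63% of all genes were lower. These were snoRNA:U3:9B (8.95, 24.3 and 23.8 CPM) and snoRNA:Psi18S-176 (54.2, 118 and 140 CPM). The 12 mitochondrial transcripts past the filter had a median log2 ratio of −0.39, and 8 lay below both other libraries, as 42.8% of all genes past the filter did; none was at 2-fold. The large ribosomal RNA mt:lrRNA stood at 4943, 8325 and 8172 CPM, and mt:CoI, a cytochrome oxidase subunit, at 2884, 3895 and 3719 CPM. The part of these RNAs in the other results was not tested.

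The lower genes were long, and their mean level, which includes library 1, was low. The median gene span of the 79 protein-coding lower genes was 14304 bases in the annotation used here, against 3306 bases over all 5106 protein-coding genes past the filter. The median exonic length was 3950 against 2424 bases, and the median level 18.8 against 44.3 CPM. With the genes in 5 bins by span, 45 of 1021 genes in the longest bin were at least 2-fold lower (4.41%), against 6 of 1022 in the shortest (0.587%). The share did not rise steadily with span, as the second longest bin held 6 lower genes of 1021 (0.588%). The median log2 ratio was 0.01 in the shortest and −0.14 in the longest bin by span. In 5 bins by mean level, 39 of 1022 genes in the lowest bin were lower (3.82%), against 10 of 1021 in the highest (0.979%). Span, exonic length and level were not separated, and the part of each was not tested.

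Lower genes were spread over the arms. Their share of the protein-coding genes past the filter was 1.33% to 1.71% on 2L, 2R, 3L, 3R and X. On chromosome 4, which is small and rich in heterochromatin, it was 4 of 53 genes (7.55%), namely CG1674, bt, Sox102F and Cadps. The median gene span there was 10463 bases, against 2918 to 3881 bases on the other arms. The median log2 ratio on chromosome 4 was 0.02, so its genes were not low as a group.

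**Figure D4:**
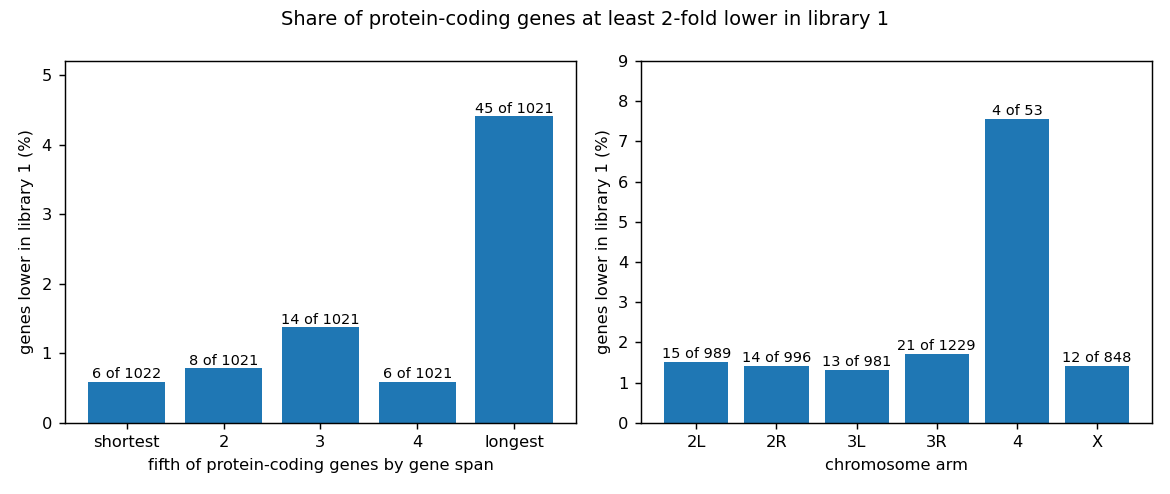
Bars give the percentage of protein-coding genes past the filter that were at least 2-fold lower in library 1, in 5 bins of gene span (left) and by chromosome arm (right), with the counts above each bar. The longest bin (45 of 1021 genes) and chromosome 4 (4 of 53 genes) have the highest shares.

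Since BEAF-32 is known for closely spaced divergent genes, neighbours were examined. Only neighbouring protein-coding genes that both passed the filter were counted as a pair. A gene whose divergent partner missed the filter therefore counts as outside such pairs. Divergent pairs with starts within 1 kb, or overlapping, in the annotation used here held 1838 of 5106 protein-coding genes past the filter (36.0%), and 14 of the 79 lower genes (17.7%). In 14 of 919 such pairs 1 gene was lower, and in 0 pairs both were. With 1.55% of protein-coding genes lower, few such pairs would be lower in both genes, so the 0 says little. Among 2799 pairs of adjacent genes that both passed the filter, divergent pairs included, 1 gene was lower in 60 pairs. Both were lower in 3 pairs, vkg with Col4a1, Hsp70Aa with Hsp70Ab, and eag with hiw, a gene of synapse growth. No sequence was examined, and binding of BEAF-32 at these genes was not tested.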

How the data were processed

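RNA-seq values per gene were analysed for the 3 wild-type Beaf libraries, with the CTCF control as a further level. Per the submitters' processing notes, the tools were CASAVA 1.8, BWA and HTSeq. Genome build, annotation and strand setting: not given in the sources used here. Overlapping genes and near-identical copies therefore remain uncertain. The deposited wild-type columns hold a signal, which the values show to be reads per gene times a constant of the column, rounded to whole numbers. Division by 1.234 and 1.237 gave whole reads, after rounding, for 99.97% and 100% of positive values in libraries 1 and 2, against 81.0% and 80.8% by chance, and division by 1.297 did so for 99.91% in the control. Library 3 could not be inverted (the value 24 occurs in 137 genes, its neighbours in 87 and 79), and its values stand in for reads.

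The last 5 rows of each table, which hold unassigned reads, were left out, as were 4 columns of mutant and knockdown libraries. Values were scaled to a total of 1000000 over gene rows (CPM). Genes entered at 10 CPM or more, averaged over library 1 and the mean of libraries 2 and 3. Ratios were taken on log2(CPM + 1), to the nearer of libraries 2 and 3 for calls (at least 2-fold) and to their mean for medians. No statistical test between libraries was run, because the libraries were set apart by a measured value and library 1 stands alone. Intervals on reads were exact at 95% (Poisson for a level, conditional binomial for a ratio), and a count of 0 was read as up to 3 reads. A fold against 0 reads is set against that limit and leaves out the counting error of the other library. PCR reads are not independent molecules, so both cover counting error only. The script that makes the calls was tested on simulated data with known folds. Ratios were computed in Python 3.11.15 with numpy 2.4.6 and pandas 2.3.3, intervals with scipy 1.17.1 and plots with matplotlib 3.10.9.

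Genes named are the 15 lowest and 15 highest by that ratio, up to 4 called members of each of 35 gene lists, and a short fixed set; other genes named were chosen after their values were seen. The members and lists were chosen with earlier results of these data known. Symbols, biotypes, arms and gene spans came from BDGP 6.54, which need not be the authors' annotation, and 14605 of 15438 IDs (94.6%) matched a symbol.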

Additional observations from a re-analysis of the deposited data

How the results depend on the processing

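Of the 90 lower genes, 82 kept the call with median-of-ratios scaling, 74 with protein-coding CPM, 69 with a pseudocount of 5 CPM and 89 with recovered reads, and 85 and 86 without library 2 or 3. The counts moved mainly with the filter and the fold. The number of genes lower in library 1 was 208 with a filter of 3 CPM, 437 with no filter, 23 with 50 CPM and 39 at 4-fold, against 90. The number higher was 17, 60, 1 and 1 in the same order, against 2. The number 2-fold apart between libraries 2 and 3 was 166, 847 and 1 under those filters and 0 at 4-fold, against 22. With CPM over protein-coding genes 7 were higher and 71 apart, without the 20 highest genes in the denominator 9 and 52, and with a pseudocount of 5 CPM 1 and 9; a smaller denominator raises CPM, so that more genes pass the filter. Without library 2 or 3 the lower genes numbered 112 to 126 and the higher 14 to 16. The median log2 ratio of all genes moved from −0.04 to 0.027 with median-of-ratios scaling and to 0.014 with protein-coding CPM, that of the hemocyte list from −0.13 to −0.058 and −0.085 in the same order, and that of the matrix list from −0.21 to −0.13 with median-of-ratios scaling. Library 1 is the only one of its side and could not be left out. No paired analysis was possible because the columns carry no replicate number and no test was run. Depth limits the scarce genes: a count of 0 in library 1 was read as up to 1.74 CPM. In the main setting genes under the filter of 10 CPM were not called, whatever their ratio.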
